A study of Mus musculus with 8 samples.

Results

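The regulators of G protein signalling (RGS proteins) of the striatum were described in Brd2 heterozygous and wildtype mice. The 10 members were Rgs2, Rgs4, Rgs7, Rgs8, Rgs9, Rgs10, Rgs14, Rgs16, Rgs17 and Rgs20, taken as every non-control probe that carries 1 of these gene names on an Agilent mouse array. They had 18 probes, of 39429 probes and 27431 gene names on the array, and all 18 were among the 25325 probes well above background in at least 4 of the 8 samples. Total RNA came from dissected striatum of adult female mice of strain C57Bl/6j, with 4 heterozygous samples (Brd2+/-) and 4 wildtype samples. The heterozygous mice carried a gene-trap vector in 1 copy of Brd2, which encodes a bromodomain protein that binds acetylated histones. Both genotypes came from matings of heterozygous parents at the seventh backcross generation, and neither received a drug. The tissue label names the prefrontal cortex as well as the striatum, while the sample descriptions name the striatum alone. Neither the age in weeks nor whether a sample was 1 animal is given in the sources used here. The p-values therefore measure how far these samples spread.

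RGS proteins speed up the hydrolysis of GTP by the alpha subunits of heterotrimeric G proteins and so shorten the signal of the receptors that activate them. In striatal projection neurons, which receive dopamine and cortical glutamate, they act on signals of dopamine, muscarinic, opioid and metabotropic glutamate receptors. The members belong to 4 families by sequence. Rgs2, Rgs4, Rgs8 and Rgs16 are small R4 proteins. Rgs7 and Rgs9 are R7 proteins, which are stable only when bound to the G protein beta 5 subunit (Gnb5) and are held at membranes by anchors such as Rgs7bp. Rgs10 and Rgs14 belong to the R12 family, and Rgs17 and Rgs20 to the RZ family, which acts on Gz among other alpha subunits. The long splice form of Rgs9 is a well known product of the striatum and the short form is that of photoreceptors.

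What a member's signal stands for depends on its probe, so the probes that the results turn on are shown, each 60 bases long and read 5′ to 3′ from the array files (coordinates in mm9). The first 4 are whole probes. The Rgs2 probe is the brighter of that gene's pair, Rgs7 has this probe alone, and the Rgs8 and Rgs9 probes gave genotype groups that did not overlap.
Rgs2 probe A_55_P2109857, chr1:145848830-145848889, minus strand: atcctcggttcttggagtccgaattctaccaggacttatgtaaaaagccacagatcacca
Rgs7 probe A_55_P2089198, chr1:177008321-177008380, minus strand: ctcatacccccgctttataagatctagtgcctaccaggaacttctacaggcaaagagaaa
Rgs8 probe A_52_P635598, chr1:155539919-155539978, plus strand: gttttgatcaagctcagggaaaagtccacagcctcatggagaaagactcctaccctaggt
Rgs9 upstream probe A_55_P1969027, chr11:109121142-109121201, minus strand: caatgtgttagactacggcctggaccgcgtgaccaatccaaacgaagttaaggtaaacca
The other probes of Rgs9 read the ends of its annotated transcript variants, and their first 30 bases show how they relate. Capitals mark the stretch of these 30 bases that both variant 1 probes hold. Over their full length the probes A_55_P1969032 and A_55_P2032232 share 54 of 60 bases, so they measure nearly the same target.
Rgs9 variant 1 probe A_55_P1969032, chr11:109086675-109086734, minus strand: aggcatGTGGGCCAGAAGATATCCCTTGCT
Rgs9 variant 1 probe A_55_P2032232, chr11:109086669-109086728, minus strand: GTGGGCCAGAAGATATCCCTTGCTGCCTTA
Rgs9 variant 2 probe A_66_P140185, chr11:109096382-109096441, minus strand: tatagactttgctatctcagcactcagggg
The last 30 bases of the brightest Rgs20 probe are shown because they hold a run of 29 alternating C and T bases, in capitals.
Rgs20 probe A_55_P2102155, chr1:4900008-4900067, minus strand: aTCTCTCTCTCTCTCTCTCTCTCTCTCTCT

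Samples of 1 genotype shared each array, 1 labelled with Cy3 (replicates 1 and 3) and 1 with Cy5 (replicates 2 and 4), on 4 arrays of a single slide. Between 37.7% and 47.6% of spots were well above background in Cy3 samples and between 65.9% and 75.5% in Cy5 samples, with the lowest share in the library labelled heterozygous replicate 3. Precision is limited by the number of samples, 4 of each genotype. Values are normalised log2 intensities with the mean effect of the dye removed, and differences are heterozygous minus wildtype. Brd2 measured 11.79, 11.96, 12.44 and 11.83 in heterozygous replicates 1 to 4, against 12.97, 13.11, 12.52 and 12.82 in wildtype replicates 1 to 4. The groups did not overlap, but the library labelled heterozygous replicate 3 came within 0.08 of the lowest wildtype sample. The difference was -0.85 (SE 0.19), or 55.4% of the wildtype level, with an exact two-sided permutation p of 0.0286, the smallest that 4 against 4 samples allow. Its adjusted p in limma's fit across all probes was 0.39, and without that library the difference was -1.03. As a mean over all Brd2 probes that passed the filter it was -0.28. Differences of the RGS probes are therefore given with and without it.

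No RGS gene passed the test between genotypes. Of 25325 probes, 1 was called at limma's adjusted p under 0.05 (0.00395%), a probe of Btbd9, which was named after its value was seen. Of the members, 0 of 10 genes and 0 of 18 probes were called, with adjusted p from 0.465 to 0.888. At an unadjusted p under 0.05 there were 6 of 18 member probes (33.3%), all lower in heterozygous samples, against 4.83% of all probes that were lower, 4.06% that were higher and 8.88% in either direction at this level. These 6 probes belong to Rgs2, Rgs8, Rgs9 and Rgs10. Probes of a gene measure the same RNA and are not independent, and by the brightest probe of each gene the count was 2 of 10 (20%), Rgs8 and Rgs10. The Rgs10 value rests on leaving out 1 wildtype spot that was marked as an outlier.

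Brightness depends on the probe as well as on the amount of RNA, so the members' levels were not ranked against each other. The 4 Rgs9 probes alone had wildtype means from 8.32 to 15.73. Of the 18 probes, 15 were well above background in all 8 samples, among them at least 1 for every member. The 3 dimmer probes, of Rgs2, Rgs9 and Rgs20, each stood beside a brighter probe of the same gene.

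**Figure D1:**
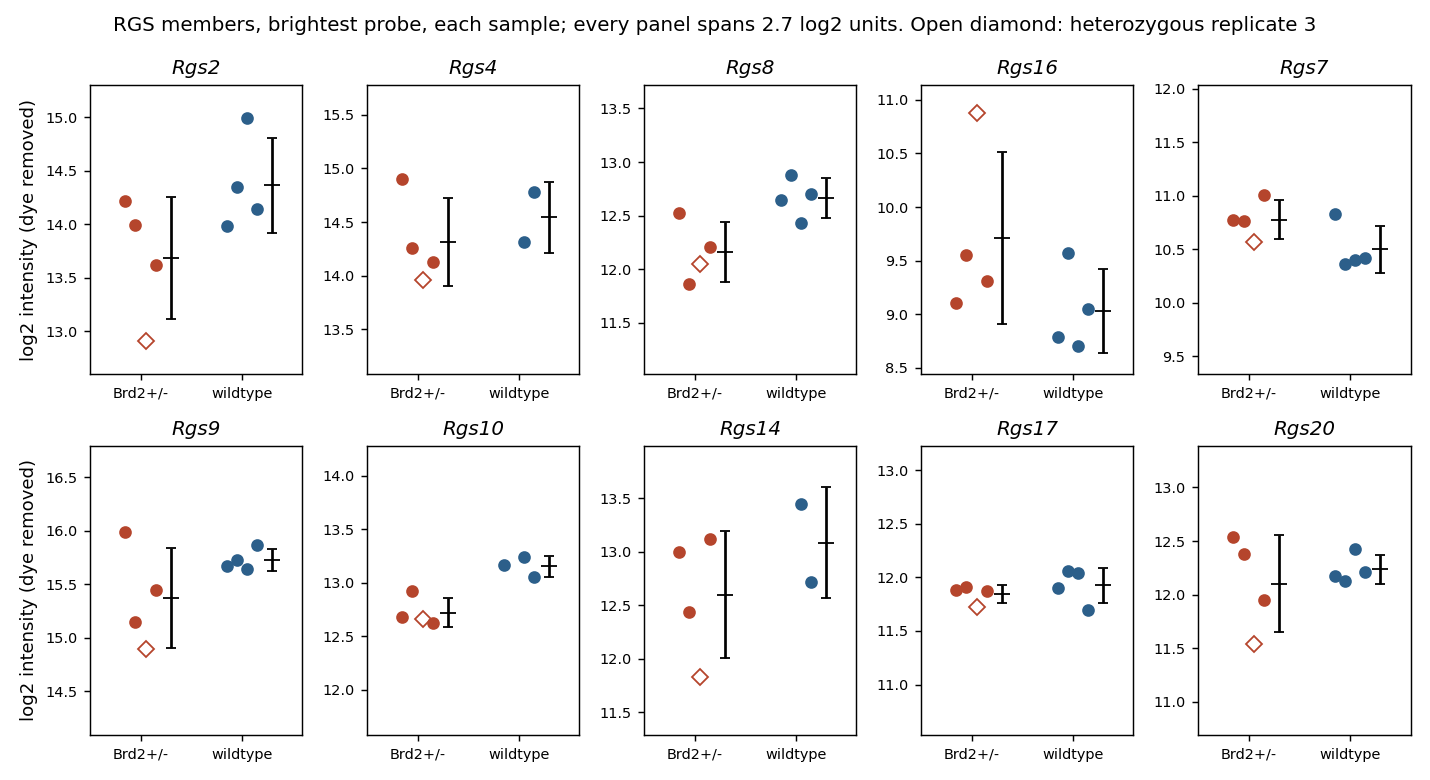
Normalised log2 intensity (vertical axis, dye effect removed) of the brightest probe of each of the 10 RGS genes in Brd2+/- (left, red) and wildtype (right, blue) samples, with bars for the mean ± SD and an open diamond for the library labelled heterozygous replicate 3. Only in the Rgs10 panel, where 3 wildtype samples were measured, do the groups not overlap, and the open diamond is the lowest point for Rgs2, Rgs4, Rgs9, Rgs14 and Rgs20 and the highest for Rgs16.

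Among the R4 members, Rgs8 was lower in heterozygous samples at both of its probes, at a size that did not pass the adjusted threshold. Rgs8 acts on Gi, Go and Gq alpha subunits and in the brain is best known from Purkinje cells and the striatum. Its brighter probe, A_55_P2004861, measured 12.52, 11.86, 12.05 and 12.21 in heterozygous samples, against 12.65, 12.88, 12.43 and 12.70 in wildtype samples. Heterozygous replicate 1 lay within the wildtype range and the other heterozygous samples below it. The difference was -0.50 (SE 0.168), or 70.5% of the wildtype level, with an unadjusted p of 0.0172 and limma's adjusted p of 0.486. The second probe, A_52_P635598, measured 9.64, 9.37, 8.92 and 9.16 in heterozygous samples, against 9.75, 9.75, 9.87 and 9.89 in wildtype samples. All 4 heterozygous samples were below all 4 wildtype samples, which had the narrower spread (means 9.27 ± 0.31 and 9.82 ± 0.08, SD, n = 4 each). That difference was -0.54 (SE 0.162, limma's adjusted p = 0.469), close to the value of the brighter probe. The dimmer probe gave nearly the same difference in Cy3 samples, at -0.53, as in Cy5 samples, at -0.56, whereas the brighter gave -0.25 in Cy3 and -0.76 in Cy5. Without the library labelled heterozygous replicate 3 the differences were -0.46 at the brighter and -0.41 at the dimmer probe. In bulk tissue, fewer cells of a type and less RNA per cell cannot be told apart, which holds for every gene described here.

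Rgs2, which acts mainly on Gq and is induced by neuronal activity, had the largest negative difference of any member by its brightest probe, and the value was smaller without 1 library. Probe A_55_P2109857 measured 14.22, 13.99, 12.91 and 13.62 in heterozygous samples, against 13.98, 14.35, 14.99 and 14.14 in wildtype samples. The groups overlapped, with the lowest value in heterozygous replicate 3 and the highest in wildtype replicate 3. The difference of -0.68 (SE 0.327, limma's adjusted p = 0.581) became -0.38 without the library labelled heterozygous replicate 3. The second probe, A_52_P378968 at chr1:145847227-145847286, lies 1.6 kb further along the transcript. It measured 9.16, 8.89, 8.44 and 9.02 in heterozygous samples, against 9.23, 9.07, 9.63 and 9.47 in wildtype samples. Heterozygous replicate 1 was above the lowest wildtype sample, and the other heterozygous samples were below the wildtype range. Its difference was -0.47 (SE 0.193), with an unadjusted p of 0.0412 and limma's adjusted p of 0.543, and -0.29 without that library.

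Rgs4, an abundant forebrain regulator of Gi, Go and Gq signals, did not show a direction that its probes shared. The brightest probe, A_55_P2026734 at chr1:171671609-171671668, measured 14.90, 14.26, 13.96 and 14.13 in heterozygous samples, against 14.31 and 14.78 in wildtype replicates 3 and 4. The scanner software had marked the spots of wildtype replicates 1 and 2, which shared an array, as outliers, so the fit left them out. The remaining values overlapped, and the difference was -0.23 (SE 0.303, limma's adjusted p = 0.831), -0.27 with the marked spots kept and -0.09 without the library labelled heterozygous replicate 3. At the second probe, A_55_P2026738 at chr1:171672488-171672547, heterozygous samples measured 13.93, 13.25, 14.05 and 13.67, against 13.63, 13.64, 12.98 and 14.03 in wildtype samples. These groups also overlapped, with a difference of 0.15 (SE 0.256, limma's adjusted p = 0.869). For this probe the Cy3 samples gave 0.68 and the Cy5 samples -0.38, and the value was 0.03 when the library labelled heterozygous replicate 3, here the highest of the 8 samples, was left out.

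Rgs16, a member induced by many stimuli that acts on Gi and Gq, had the largest positive difference, and it rested on 1 library. Probe A_51_P249286, at chr1:155592244-155592303, measured 9.10, 9.55, 10.88 and 9.31 in heterozygous samples, against 8.79, 9.57, 8.70 and 9.05 in wildtype samples. Except for the library labelled heterozygous replicate 3, which stood above the others, the heterozygous values lay within the wildtype range. The difference was 0.68 (SE 0.394, limma's adjusted p = 0.637) with that library and 0.20 without it. The probes of Rgs16 and Rgs8 lie 52.3 kb apart on chromosome 1, and RefSeq's gene order (GRCm38.p6) has 0 protein-coding genes between them. Their differences had opposite signs.

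Among the R7 members, the Rgs9 difference depended on the probe, though all 4 probes were on the negative side. In the striatum the protein's long form acts on D2 dopamine and mu opioid receptor signals. The brightest probe, A_55_P2032232 at the end of transcript variant 1, measured 15.99, 15.15, 14.90 and 15.45 in heterozygous samples, against 15.67, 15.73, 15.64 and 15.87 in wildtype samples. Heterozygous replicate 1 was the highest of all 8 samples, the other heterozygous samples were below every wildtype sample, and the spread was wider among heterozygous samples (15.37 ± 0.47, against 15.73 ± 0.10 in wildtype, SD, n = 4 each). The difference was -0.36 (SE 0.224, limma's adjusted p = 0.655), and it was -0.60 when heterozygous replicate 1 was left out and -0.17 when the library labelled heterozygous replicate 3 was.

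The overlapping variant 1 probe, A_55_P1969032, gave a smaller difference with overlapping groups. It measured 15.87, 14.88, 14.95 and 15.31 in heterozygous samples, against 15.51, 15.69, 14.94 and 15.39 in wildtype samples, with a difference of -0.13 (SE 0.255, limma's adjusted p = 0.888). Its lowest wildtype value, in replicate 3, was not shared by the probe that overlaps it, and without that sample the difference was -0.31. It was -0.01 without the library labelled heterozygous replicate 3, also -0.01 without heterozygous replicate 2, 0 without wildtype replicate 2, and 0.18 in Cy3 against -0.44 in Cy5 samples. The variant 2 probe, A_66_P140185, lies 9.71 kb from the variant 1 end and was dim, with 6 of 8 samples well above background. It measured 8.21, 8.0, 7.86 and 8.15 in heterozygous samples, against 8.38, 8.37, 8.31 and 8.24 in wildtype samples. These groups did not overlap, though they were separated by little, and the difference was -0.27 (SE 0.113, unadjusted p = 0.0472, limma's adjusted p = 0.553). Leaving out the library labelled heterozygous replicate 3 gave -0.18.

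The upstream Rgs9 probe, A_55_P1969027, lies 24.8 kb before the variant 2 probe, and the array's annotation names an Ensembl transcript for it and not variants 1 and 2. Whether this probe also reads variants 1 and 2 was not determined. It had the smallest p of the 18 member probes. It measured 9.04, 8.96, 9.40 and 9.22 in heterozygous samples, against 9.48, 9.58, 9.60 and 9.77 in wildtype samples. Every heterozygous sample was below every wildtype sample, and heterozygous replicate 1, the highest at the variant 1 end, was among the lowest here. The difference was -0.45 (SE 0.131), or 73.2% of the wildtype level, with an unadjusted p of 0.00902 and limma's adjusted p of 0.465. It was -0.32 in Cy3 and -0.58 in Cy5 samples, and -0.54 without the library labelled heterozygous replicate 3.

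**Figure D2:**
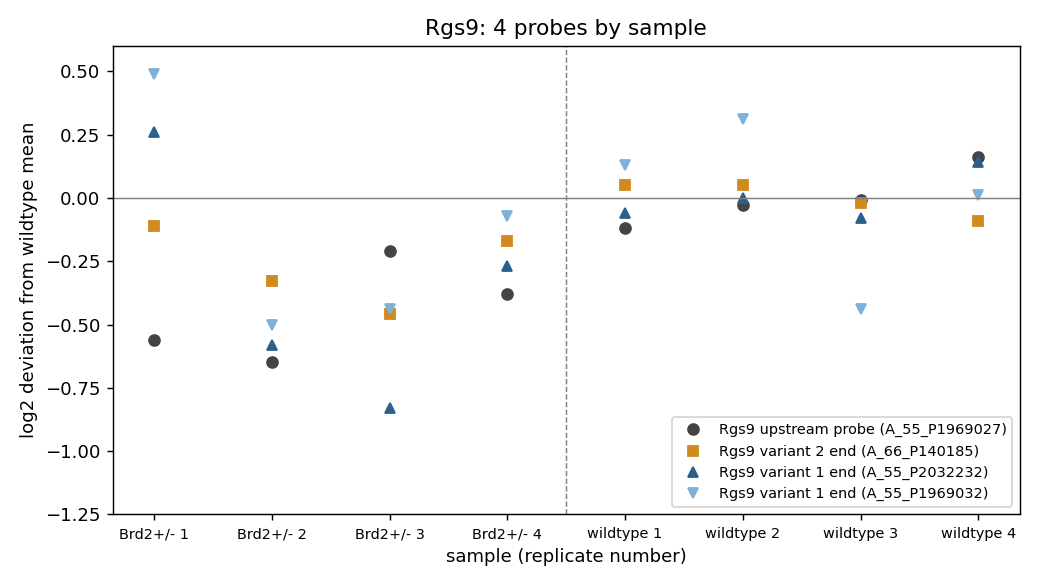
Deviation of the 4 Rgs9 probes from their own wildtype mean (vertical axis, log2, dye effect removed) in each heterozygous sample (left of the dashed line) and each wildtype sample (right). In heterozygous replicate 1 both variant 1 probes lie above 0 and the upstream and variant 2 probes below it, while in heterozygous replicates 2, 3 and 4 all 4 probes lie below 0.

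Rgs7, the R7 member found widely in brain, where it acts on Go, was the other member with a positive difference by its brightest probe. It measured 10.77, 10.76, 10.57 and 11.01 in heterozygous samples, against 10.83, 10.36, 10.40 and 10.42 in wildtype samples. Wildtype replicate 1 was among the heterozygous values, and the other wildtype samples were below all of them. The difference was 0.28 (SE 0.148, limma's adjusted p = 0.619), and 0.37 without the library labelled heterozygous replicate 3. It came mostly from the Cy5 samples, at 0.49, against 0.06 in Cy3 samples.

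The partners of the R7 proteins did not pass the test either. Gnb5, the obligate beta subunit, measured 13.38, 12.73, 12.90 and 13.21 in heterozygous samples, against 13.38, 13.36, 13.07 and 13.43 in wildtype samples. The difference was -0.26 (SE 0.167, limma's adjusted p = 0.663), and the groups overlapped. A second Gnb5 probe gave -0.18 (SE 0.423). Rgs7bp, the membrane anchor, had a difference of -0.07 (SE 0.132), and its second probe one of -0.30 (SE 0.253). Gpr158, a receptor that recruits Rgs7, had one of -0.38 (SE 0.39), with its lowest value, 11.17, in the library labelled heterozygous replicate 3.

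Of the R12 members, Rgs10 was lower in every heterozygous sample than in the 3 measured wildtype samples. Rgs10, a small regulator of Gi that in brain is found in both neurons and microglia, was read by 1 probe, A_51_P218774 at chr7:135517256-135517315. It measured 12.68, 12.92, 12.66 and 12.62 in heterozygous samples, against 13.17, 13.24 and 13.05 in wildtype replicates 1, 3 and 4, since the spot of wildtype replicate 2 was marked as an outlier. The difference was -0.43 (SE 0.129), or 74% of the wildtype level, with an unadjusted p of 0.0123 and limma's adjusted p of 0.478. With the marked spot kept it was -0.30 (SE 0.156, limma's adjusted p = 0.602), so the exclusion of that spot moved the value. The separation of the groups and the unadjusted p given here rest on leaving that spot out. With that spot left out both dyes gave the same sign, at -0.54 in Cy3 and -0.28 in Cy5 samples. The Cy5 value had wildtype replicate 4 as its only wildtype sample. Without the library labelled heterozygous replicate 3 the difference was -0.41.

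Rgs14, a scaffold for Gi alpha subunits, Rap and MAP kinase signals best known from hippocampal area CA2, had the widest error of the 18 probes. Probe A_51_P389957, at chr13:55485762-55485821, measured 13.00, 12.44, 11.83 and 13.12 in heterozygous samples, against 13.45 and 12.72 in wildtype replicates 3 and 4. The spots of wildtype replicates 1 and 2 were marked as outliers and left out. The values overlapped, with a difference of -0.49 (SE 0.423, limma's adjusted p = 0.74). It was -1.03 in Cy3 and 0.06 in Cy5 samples, each with 1 wildtype sample, and -0.13 without the library labelled heterozygous replicate 3.

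Neither RZ member separated the genotypes. Rgs17, a brain RZ protein that acts on Gz and Gi, measured 11.88, 11.91, 11.72 and 11.87 in heterozygous samples, against 11.90, 12.06, 12.04 and 11.70 in wildtype samples. The difference at its probe, A_55_P2176145 (chr10:4513546-4513605), was -0.08 (SE 0.117, limma's adjusted p = 0.847), and -0.03 without the library labelled heterozygous replicate 3. The samples of both genotypes lay within a narrow and overlapping range.

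Rgs20, named for its action on Gz, had 3 probes whose differences did not share a sign. The brightest, which holds the CT repeat shown above, measured 12.54, 12.38, 11.54 and 11.95 in heterozygous samples, against 12.17, 12.13, 12.43 and 12.21 in wildtype samples, with a difference of -0.13 (SE 0.22, limma's adjusted p = 0.869). Probe A_55_P2037023, which shares 18 bases with it, measured 10.72 to 11.56 in heterozygous samples, against 10.61 to 10.93 in wildtype samples. Its difference was 0.37 (SE 0.202, limma's adjusted p = 0.622). At both of these probes the groups overlapped, and without the library labelled heterozygous replicate 3 the differences were 0.08 and 0.54. The dim probe A_55_P2102151, well above background in 4 of 8 samples, had a difference of -0.11 (SE 0.119), and of -0.15 without that library.

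**Figure D3:**
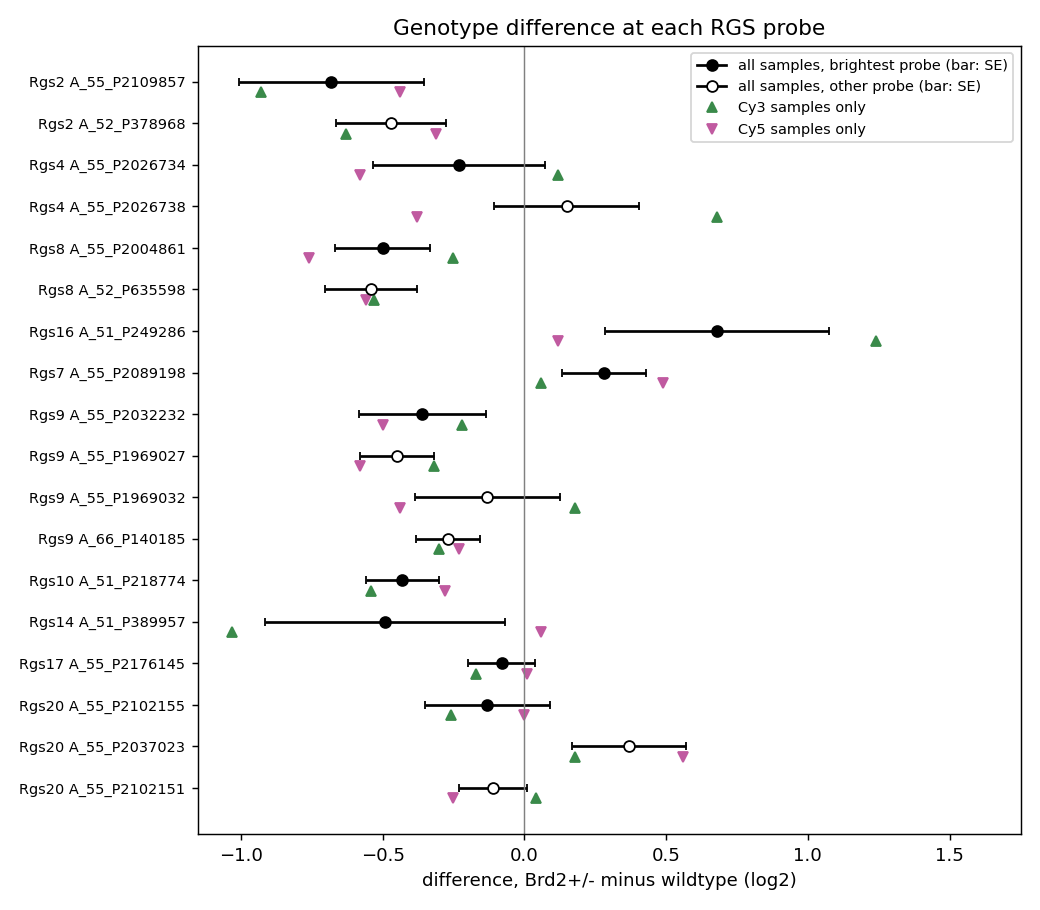
Difference in log2 intensity, Brd2+/- minus wildtype (horizontal axis), at each of the 18 RGS probes, with the standard error as a bar, filled circles for the brightest probe of each gene, open circles for its other probes, and triangles for the difference within Cy3 or Cy5 samples alone. Of the 18 probes 14 lie left of 0, none passed the adjusted threshold, and the dyes gave the same sign at 11.

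As a family, more members were lower than higher in heterozygous samples. By the brightest probe 8 of 10 members had a negative difference (80%), against 53.7% of all probes, and by all probes 14 of 18 (77.8%). The members were chosen with earlier results of these data known, so these shares only describe them. The median difference over the members was -0.29, against -0.02 over all probes and also -0.02 over the brightest probes of all genes. The choice of probe mattered for the members. With the probes of each gene averaged, Rgs4 (0.19) and Rgs20 (0.04) were positive too, and the members' median was -0.19. The Rgs4 mean held only the dimmer probe in wildtype replicates 1 and 2, where the brighter was left out. Its 0.19 thus lies above the differences of both probes (-0.23 and 0.15) and is not their average. Among the 15 member probes measured in all 8 samples, 3 had groups that did not overlap, all lower in heterozygous samples (20%), against 5.22% of all such probes, and 0 were higher, against 3.38% (8.6% of all such probes in either direction). These 3 probes belong to 2 genes, Rgs8 and Rgs9. Cy3 and Cy5 samples both gave a negative difference at 8 probes and both a positive one at 3, and shared no sign at 7.

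The lower values were not spread evenly over the heterozygous samples. The median deviation of the members from their wildtype means was 0.01, -0.25, -0.60 and -0.28 in heterozygous replicates 1 to 4, against -0.04, 0, 0 and -0.05 in wildtype replicates 1 to 4. Heterozygous replicate 1 thus lay at the wildtype level, and 5 of its 10 members were below their wildtype mean, with 7, 8 and 7 of 10 in heterozygous replicates 2, 3 and 4. In wildtype replicates 1 to 4 it was 6 of 8, 4 of 7, 5 of 10 and 6 of 10 measured members, so these counts did not separate the genotypes. Without the library labelled heterozygous replicate 3 the median difference of the members was -0.11.

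Marker genes of striatal projection neurons and of neighbouring tissue also differed between the genotypes, without passing the adjusted threshold, and their part in the RGS differences was not tested. Of 25 names of striatal projection neuron markers, 24 were on the array and passed the filter, and all 24 were lower in heterozygous samples, 7 of them at an unadjusted p under 0.05 and 0 at limma's adjusted p. In heterozygous replicates 1 to 4 these markers averaged 0.03, -0.69, -0.95 and -0.16 relative to wildtype, and in wildtype samples they lay between -0.08 and 0.10. The RGS members had means of 0.04, -0.20, -0.42 and -0.19 in heterozygous replicates 1 to 4. Like the markers, they were highest in replicate 1 and lowest in replicate 3. Replicates 2 and 4 lay close together by mean, and by median replicate 4 (-0.28) was below replicate 2 (-0.25). Of 16 markers of cortical excitatory neurons 14 passed the filter, and all 14 were higher in heterozygous samples, 8 of them at an unadjusted p under 0.05 and 0 at limma's adjusted p. Their mean lay between 0.53 and 1.45 in heterozygous samples, against -0.22 to 0.49 in wildtype samples. For scale, 53.7% of all probes had a negative difference, and 4.83% were lower and 4.06% higher at limma's unadjusted p under 0.05. The marker lists were chosen with earlier results of these data known, so their counts are a description and no independent test. Heterozygous replicate 1, with the highest cortical mean, was the sample in which the RGS members lay at the wildtype level.

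Markers of thalamus and hypothalamus were highest in the library labelled heterozygous replicate 3, at a mean of 1.96, with the other heterozygous samples between -0.37 and 0.81 and wildtype samples between -0.29 and 0.15. Those of choroid plexus and ependyma were likewise highest there, at 1.73, with -0.82, 0.38 and 0.45 in heterozygous replicates 1, 2 and 4 and -0.17 to 0.13 in wildtype samples. Heterozygous replicate 1 was thus below, and the other heterozygous samples above, every wildtype sample. By their brightest probes, that library also had the lowest Rgs2, Rgs4, Rgs9, Rgs14 and Rgs20 and the highest Rgs16, which did not hold at every other probe. It was the highest sample at the second Rgs4 probe and the highest heterozygous sample at the upstream Rgs9 probe. Markers of microglia, a source of Rgs10, had a median difference of -0.15 over 10 genes, with sample means from -0.22 to 0 in heterozygous and from -0.32 to 0.35 in wildtype samples. The lists for interneurons, oligodendrocytes, astrocytes, and endothelium and pericytes had median differences of -0.06, 0.10, -0.03 and 0.09.

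**Figure D4:**
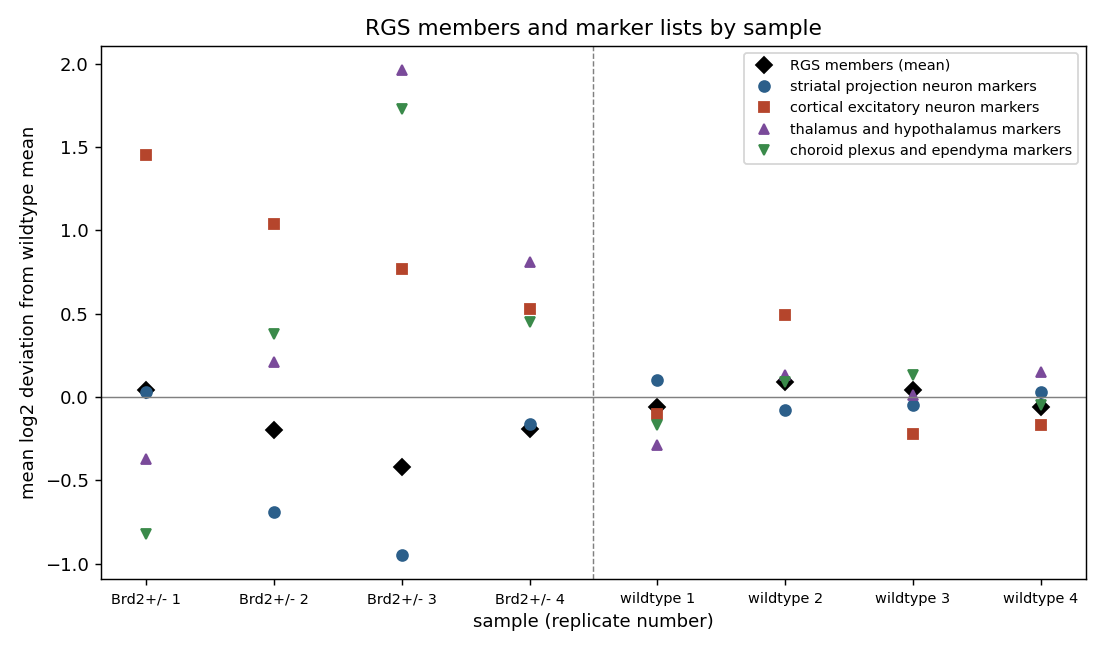
Mean deviation from the wildtype mean (vertical axis, log2, dye effect removed) of the RGS members and of 4 marker lists in each heterozygous sample (left of the dashed line) and each wildtype sample (right). The RGS members lie at 0.04, -0.20, -0.42 and -0.19 in heterozygous replicates 1 to 4, next to projection neuron markers at 0.03, -0.69, -0.95 and -0.16, and cortical markers are at or above 0.53 in all heterozygous samples.

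The rest of the pathway was given by lists of genes chosen with earlier results of these data known. Of these genes 0 were called by limma's adjusted p. At limma's unadjusted p under 0.05, 1 of 10 tested other RGS genes was higher in heterozygous samples. Of 25 G protein subunits 1 was higher and 3 were lower, of 30 receptors 3 were higher and of 18 effectors 5 were higher. Over all probes 4.06% were higher and 4.83% lower at this level. Of 16 other RGS genes and partners 10 passed the filter, 6 with a negative and 4 with a positive difference. The probe with the smallest p among them was one of Rgs6, an R7 protein like Rgs7 and Rgs9. It measured 9.01, 9.19, 9.07 and 9.11 in heterozygous samples, against 8.62, 8.57, 8.68 and 8.51 in wildtype samples. The groups did not overlap, and the difference was 0.50 (SE 0.0966, limma's adjusted p = 0.374), but its other probes gave 0.16 and -0.12. Rgs3, an R4 protein, had a difference of 0.52 (SE 0.256), with its highest value, 12.49, in the library labelled heterozygous replicate 3, while its other probes gave -0.08 and 0. Rgs1 and Rgs13, which neighbour Rgs2, did not pass the filter, nor did Rgs18, Rgs21, Rgs22 and Gpr179.

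Of 25 G protein subunit genes all 25 passed the filter, 15 with a negative and 10 with a positive difference and a median of -0.16. Gng5, a gamma subunit, had a difference of -0.33 (SE 0.113, limma's adjusted p = 0.497) and Gnb4, a beta subunit, one of -0.48 (SE 0.168, limma's adjusted p = 0.51). Gnao1, the Go alpha subunit on which most of the members act, had one of -0.29 (SE 0.154). Its second probe, well above background in 4 of 8 samples, gave -0.40 (SE 0.158). Gnal, the Golf alpha subunit of projection neurons, had a difference of -0.18 (SE 0.447) with 1 wildtype value and -0.58 (SE 0.319) at its second probe. Of 31 receptors 30 were tested, with 15 differences on either side of 0. Htr1a, a serotonin receptor, had the smallest p, with 7.97, 8.01, 7.95 and 8.04 in heterozygous samples, against 7.23, 7.27, 7.40 and 7.26 in wildtype samples. The difference of 0.70 (SE 0.0926) had an adjusted p of 0.261 in limma's fit, and the probe was well above background in 4 of 8 samples. Grm8, a glutamate receptor, had a difference of 0.29 (SE 0.107) and Drd2, the dopamine receptor whose signal Rgs9 shortens, one of -0.28 (SE 0.295).

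Among 18 tested effectors 11 had a positive and 7 a negative difference, with a median of 0.20. Kcnj3, a subunit of potassium channels opened by G protein beta and gamma subunits, had a difference of 0.40 (SE 0.122, limma's adjusted p = 0.478). Its probe was dim, well above background in 4 of 8 samples, as was its second probe, which gave 0.27 (SE 0.137). Adcy1, an adenylyl cyclase of cortex and hippocampus, had a difference of 0.72 (SE 0.239, limma's adjusted p = 0.486). Adcy5, the main adenylyl cyclase of striatal projection neurons, measured 14.54, 13.66, 14.01 and 14.44 in heterozygous samples, against 14.66, 14.68, 14.33 and 14.76 in wildtype samples. Its groups overlapped, with a difference of -0.44 (SE 0.211, limma's adjusted p = 0.58), and its other probes gave -0.23 (SE 0.364) and -0.37 (SE 0.225). In heterozygous samples Adcy5 had its highest value in replicate 1, as Rgs9 did at the variant 1 end.

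Genes whose values over the samples lay nearest to those of Rgs9 and Rgs4 were sought among 12741 genes, by the mean absolute difference in log2 deviation. Over 8 samples the brightest Rgs9 probe was nearest to Pxdn, an extracellular matrix peroxidase, at 0.0643, then to Scn4b, a sodium channel subunit enriched in striatum, at 0.0844, and to Gprin3, at 0.0904. The median over all candidates was 0.319. For Rgs4, over its 6 measured samples, the nearest were Ubap2l at 0.0877, Arhgef3 at 0.0922 and Msx2 at 0.105, with a median of 0.328. Genes picked as the nearest of so many lie below the median by selection, so these distances test no likeness.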

How the data were processed

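Per the file headers, the scanner intensities are those of Agilent Feature Extraction 10.7.3.1, and probes are placed on mm9. Files of samples that shared an array were identical (4 pairs), and every sample's values came from the channel of its dye. The series' deposited values are a ratio of each spot's background-subtracted median intensity to its column's median, as found from the values (tolerance 1e-04). They were used as an alternative.

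Mean and background intensities were corrected with normexp (offset 50) and normalized by loess and Aquantile with the R packages limma (version 3.58.1, under R 4.3.3), statmod (1.5.0) and data.table (version 1.17.8), which gave log2 values. The offset shrinks differences of dim probes. Outlier-marked spots (230 to 978 per sample) were left out, none was saturated, and 1377 control spots were removed. Probes well above background in at least 4 samples were fitted together on genotype and dye, with array as a random block (consensus correlation -0.0117), with Benjamini-Hochberg adjustment over all 25325 probes. Each array held 1 genotype, so single-array effects and genotype cannot be fully told apart. The fit was tested on simulated data.

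The members and gene lists were chosen with earlier results of these data known. Named were all members, Brd2, the 2 genes with the smallest p of each pathway list, 7 partners and effectors (Gnb5, Rgs7bp, Gpr158, Gnal, Gnao1, Drd2 and Adcy5), and the 3 genes nearest to Rgs9 and to Rgs4. Btbd9 and the RGS genes that did not pass the filter were named outside this rule. The nearest genes to Rgs4 were compared over the 6 samples in which it was measured. Alternatives covered background correction, normalization, the deposited values, filter, probe choice, array and replicate blocks, dye, variance model and each sample left out. Figures were drawn with matplotlib 3.10.9.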

Additional observations from a re-analysis of the deposited data

Results flagged for a closer look

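In Rgs7, wildtype replicate 1 stood apart from the other wildtype samples at 10.83, with a gap to the nearest of them that made up 0.87 of the group's range. It was the 1 such case among the 35 groups of 4 samples examined over the member probes and the Brd2 probe, and chance alone gives such a gap in about 1 of 20 groups. Without that sample the Rgs7 difference was 0.40, against 0.28 with all samples.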

How the results depend on the processing

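Under all 21 alternatives 0 RGS members passed the threshold, and the lowest adjusted p by limma over the members' brightest probes was 0.315, for Rgs8 and Rgs9. Over all member probes, with each sample or dye left out, it was 0.309, for the upstream Rgs9 probe A_55_P1969027 without heterozygous replicate 3. The differences of Rgs2, Rgs7, Rgs8, Rgs9, Rgs10, Rgs16 and Brd2 kept their sign under all of them. The count of 1 called probe over the array became 0 with the deposited value table, without a filter on dim probes and with Cy3 samples alone, and with each sample left out it lay between 0 and 1, staying at 1 only without heterozygous replicate 3. The members' median of -0.29 became -0.60 with the value table and lay between -0.46 and -0.11 with each sample left out, the last of these without heterozygous replicate 3. With the mean over its probes Rgs4 was 0.19, where wildtype replicates 1 and 2 held only its dimmer probe. It also turned positive with Cy3 samples alone (0.12) and without wildtype replicate 4 (0.12, range -0.58 to 0.12). Rgs20 did so with the mean over probes (0.04) and without heterozygous replicate 3 (0.08, range -0.33 to 0.08), Rgs14 with Cy5 samples alone (0.06) and without wildtype replicate 3 (0.06, range -1.03 to 0.06), and Rgs17 with Cy5 samples alone (0.01). The causes were not tested. Brd2 lay between -1.03 and -0.71 with each sample left out and was -0.28 as the mean over its probes. Keeping the outlier-marked spots was an alternative chosen after seeing the data and turned no sign. Replicate numbers did not pair the samples (correlations of deviations 0.17, -0.30, -0.19 and -0.26 for replicates 1 to 4). With the replicate block 0 probes were called, the members' median was -0.43, Brd2 was -0.85, Rgs4 -0.50, Rgs10 -0.50 and Rgs14 -0.61, and no member's call changed. The dim probes of Rgs2, Rgs9 and Rgs20, close to background, limit what can be read from them.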
